A study of Mus musculus with 24 samples.

Results

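The Hedgehog pathway was described through 9 genes, Shh, Ptch1, Smo, Gli1, Gli2, Gli3, Hhip, Gas1 and Cdon, chosen by name and found as 9 of the 46603 annotated genes (of 126602 features in all) in the count tables of mouse retinal organoids (MROs). The organoids were grown from wildtype E14Tg2a mouse embryonic stem cells, a feeder-independent line, by a protocol in which each early aggregate is cut into 3 parts and, per the study's methods, receives the synthetic retinoid EC23 for some days before the first timepoint. Libraries were made from 24 individual organoids of 1 independent experiment, 6 each at differentiation day (D) 20, 22, 25 and 30, so p-values measure the spread between organoids of that experiment. Library titles at D22, D25 and D30 carry the mark Ctrl for control, while those at D20 carry none. The labels name only water, the solvent, as an addition. Counted reads per organoid numbered 13634846 to 19477108. One limit applies to every value below: each library is a whole organoid, so fewer cells of a type and less RNA per cell cannot be told apart.

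Hedgehog ligands are secreted proteins that bind Patched receptors on the receiving cell. Unbound Patched 1 (Ptch1) holds back the membrane protein Smoothened (Smo), and when a ligand binds, Smo becomes active at the primary cilium and shifts the balance of the Gli transcription factors from repressor towards activator. In the developing mouse retina sonic hedgehog (Shh) is made mainly by ganglion cells and is known for its action on progenitor proliferation, while Gli1, Ptch1 and Hhip are widely used as readouts of signalling because the pathway switches them on.

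Of the 9 members, 8 passed the filter on low counts (a mean of at least 10 normalised counts) and were tested. Gli1 did not pass. In a joint test of the 4 timepoints, 5 of these 8 passed the threshold of 0.01 on the adjusted p (quasi-likelihood test of edgeR adjusted by Benjamini-Hochberg across the 46949 features tested), beside 27.2% of all tested features. They were Shh, Smo, Gli2, Gli3 and Cdon. Between D20 and D30, 4 members fell (Smo, Gli2, Gli3 and Cdon) and none rose, beside 26.8% of all features called and 13.0% called lower. All members are annotated genes, while 30696 of the 46949 tested features are assembled loci. The share of annotated genes called in the joint test was not taken. Of the 16253 annotated genes tested, 6790 were called from D20 to D30, 4078 of them higher and 2712 lower. The receptor and target gene Ptch1, the co-receptor Gas1 and the decoy receptor Hhip passed no test. The median log2 change of the 8 tested members from D20 to D30 was -0.34, that of all tested features was -0.04 and that of the annotated genes tested was 0.099.

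**Figure D1:**
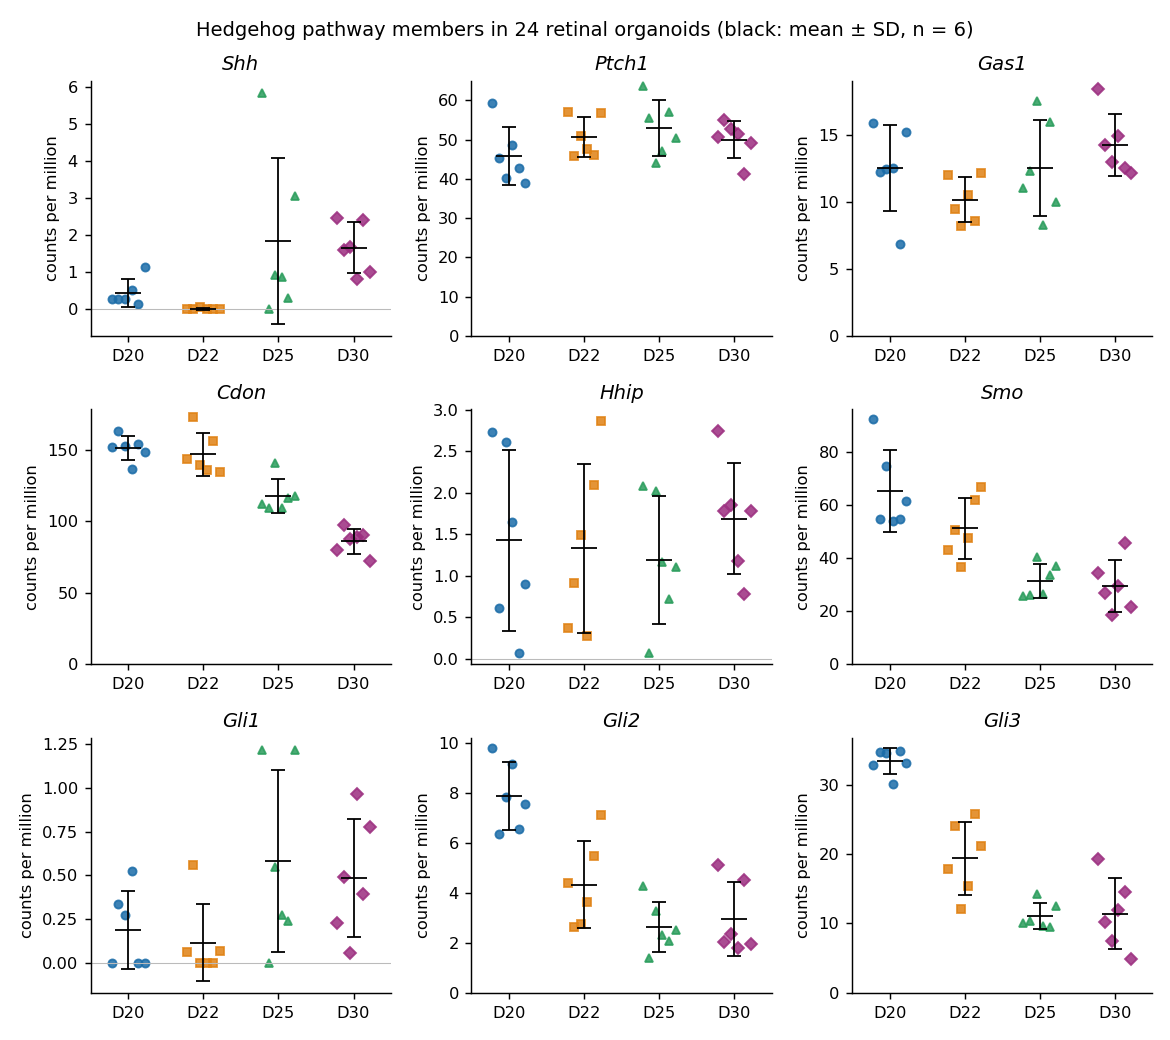
CPM (read counts scaled to a common library total with TMM factors) of the 9 members on the vertical axis, 1 point per organoid, at D20, D22, D25 and D30, with the black bar and whiskers giving the mean and SD of 6 organoids. Smo, Gli2, Gli3 and Cdon stand lower at D30 than at D20 without overlap, while Ptch1 keeps to between 38.9 and 63.7 CPM in all organoids.

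The members lie on 7 chromosomes of the GRCm38 build, and the counts cover the exons of each gene. Shh (ENSMUSG00000002633) is at chr5:28456815-28467256 on the minus strand, Ptch1 (ENSMUSG00000021466) at chr13:63508328-63573598 on the minus strand and Smo (ENSMUSG00000001761) at chr6:29735503-29761365 on the plus strand. Gli1 (ENSMUSG00000025407) is at chr10:127329882-127341974 on the minus strand, Gli2 (ENSMUSG00000048402) at chr1:118834132-119053619 on the minus strand and Gli3 (ENSMUSG00000021318) at chr13:15463235-15730026 on the plus strand. Hhip (ENSMUSG00000064325) is at chr8:79965851-80058006 on the minus strand, Gas1 (ENSMUSG00000052957) at chr13:60174405-60177365 on the minus strand and Cdon (ENSMUSG00000038119) at chr9:35421128-35507652 on the plus strand. Exons of Shh, Gli1, Gli3, Hhip and Gas1 overlap annotated genes on the opposite strand. Whether the counting used the strand was not given in the sources used here, so reads of those partners cannot be told apart from theirs, which matters most for the low counts of Shh and Gli1.

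Promoter windows were available for 7 members in RefSeq (GRCm38.p6), and the 250 bases before the start are shown for those 4 whose window lies outside the annotated gene body, since Smo and Gli2 fell over time and Hhip and Gas1 did not pass the test. Bases are given 5′ to 3′ on the gene's strand, with capitals marking the GC box GGGCGG on either strand. The windows are chr6:29735247-29735496 (plus strand) for Smo, chr1:119053620-119053869 (minus strand) for Gli2, chr8:80058009-80058258 (minus strand) for Hhip and chr13:60177536-60177785 (minus strand) for Gas1.
Smo: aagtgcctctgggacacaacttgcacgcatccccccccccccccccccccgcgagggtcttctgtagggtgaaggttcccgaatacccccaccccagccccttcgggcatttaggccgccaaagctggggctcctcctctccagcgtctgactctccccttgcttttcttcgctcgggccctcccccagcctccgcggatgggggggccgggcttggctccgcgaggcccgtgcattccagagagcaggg
Gli2: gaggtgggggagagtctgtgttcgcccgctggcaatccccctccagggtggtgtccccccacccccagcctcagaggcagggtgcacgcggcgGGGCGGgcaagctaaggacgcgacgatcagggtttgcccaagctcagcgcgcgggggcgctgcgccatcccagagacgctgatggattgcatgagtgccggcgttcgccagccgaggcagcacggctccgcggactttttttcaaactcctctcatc
Hhip: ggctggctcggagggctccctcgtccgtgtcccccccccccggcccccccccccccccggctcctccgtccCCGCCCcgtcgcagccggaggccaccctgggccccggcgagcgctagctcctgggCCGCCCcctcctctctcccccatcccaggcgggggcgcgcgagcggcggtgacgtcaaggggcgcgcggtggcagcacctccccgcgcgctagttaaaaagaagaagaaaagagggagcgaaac
Gas1: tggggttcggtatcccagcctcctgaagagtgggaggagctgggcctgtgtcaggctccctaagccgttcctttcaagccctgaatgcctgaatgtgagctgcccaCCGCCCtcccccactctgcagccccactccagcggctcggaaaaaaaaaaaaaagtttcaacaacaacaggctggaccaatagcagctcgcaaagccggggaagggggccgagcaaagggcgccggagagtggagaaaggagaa
GC boxes were absent from the Smo and Cdon windows, numbered 1 in those of Gli2, Gas1 and Ptch1, and 2 in those of Gli3 and Hhip, and 32.7% of all 32851 RefSeq windows of this length held at least 1. The Gli binding motif GACCACCCA, searched on both strands, was in none of the 7 windows and in 0.225% of all windows. With up to 1 mismatch it was again in none of the 7 and in 5.79% of all windows. These matches describe letters in a short window only.

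Compared per kilobase of exon, so that genes of different length can be set side by side, the co-receptor Cdon was the highest member at every timepoint, at 19.6 ± 1.09 CPM per kb (SD, n = 6) at D20 and 11.2 ± 1.14 at D30. Smo came next, with 11.6 ± 2.73 at D20 and 5.24 ± 1.72 at D30. At D20 Gas1 (4.23 ± 1.08), Gli3 (3.48 ± 0.191) and Ptch1 (3.24 ± 0.525) followed, and the ranges of neighbours in that order overlapped. Gli2 stood apart below them at 1.15 ± 0.200. Hhip (0.157 ± 0.120), Shh (0.155 ± 0.130) and Gli1 (0.0380 ± 0.0449) were lowest and their neighbouring ranges overlapped. By D30 the order had become Cdon, Smo, Gas1, Ptch1, Gli3, Shh, Gli2, Hhip and Gli1. At that time Cdon stood apart from Smo, Gas1 from Ptch1 and Ptch1 from Gli3, while all other neighbours overlapped. At every timepoint Cdon, Smo, Gas1 and Ptch1 lay above Shh and Gli1 without overlap.

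Shh, the ligand, was sparse and uneven between organoids. At D20 its read counts were 4, 4, 4, 8, 2 and 18. At D22 they were 0 in 5 organoids and 1 in the other. At D25 they were 101, 0, 15, 16, 5 and 50, and at D30 they were 43, 26, 29, 12, 37 and 18. Every D20 organoid lay above every D22 organoid, and the D25 range took in both. All 6 D30 organoids held at least 12 reads. With 1 read at D22 against 40 at D20, the D20 level in CPM was 40.2 times that of D22 (95% exact interval 6.81 to 1627, counting error only), and the adjusted p of 0.0148 in edgeR's test missed the threshold of 0.01, beside 1.90% of features called. Shh rose from D22 to D25 (adjusted p = 0.000117, 187 reads against 1), beside 5.28% of features called. The ratio was 168 with an exact counting interval of 29.7 to 6657. It was 93.3 without D25 replicate 1, and without D22 replicate 3 the D22 sum was 0 reads. The call held with each organoid left out in turn.

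From D25 to D30 the summed Shh reads were 187 and 165, the mean level was 1.83 ± 2.24 CPM (SD, n = 6) and then 1.66 ± 0.685, and the log2 change of -0.15 ± 0.64 (SE) was not past the threshold (adjusted p = 0.9496, edgeR's quasi-likelihood test). Its sign turned without D25 replicate 1 (0.682) or D25 replicate 6 (0.058), the 2 organoids highest in Shh at that timepoint, and without D30 replicates 2 and 6 together (0.007). Set against D20, D25 gave a log2 change of 2.03 ± 0.70 (adjusted p = 0.0317) and D30 gave 1.88 ± 0.70 (adjusted p = 0.0321), neither of them past 0.01. The difference between D20 and D22 passed without D25 replicate 1 (adjusted p = 0.00819) or D25 replicate 2 (0.00478), in DESeq2 (0.000981) and with no filter on low counts (0.00798). That between D20 and D25 passed without D25 replicate 2 (0.00639), the organoid with no Shh read. That between D20 and D30 passed when only those 2 timepoints were fitted (0.00740).

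Other cell types' genes were read beside Shh. Summed over 7 ganglion cell markers, the level was 120 to 227 CPM at D20, 72.9 to 131 at D22, 62.0 to 125 at D25 and 53.3 to 252 at D30. The D22 and D25 ranges overlapped. A list of 4 genes known from forebrain neurons (Emx1, Tbr1, Neurod2 and Neurod6), chosen after their values were seen, was uneven between organoids too. The list is not specific to forebrain, since Neurod6 also marks postmitotic amacrine cells of the retina. Its sum was 3.36 to 183 CPM at D20, 0.858 to 10.3 at D22, 3.97 to 254 at D25 and 4.27 to 209 at D30. D20 replicate 6, with 18 Shh reads, had the highest sum of its timepoint. At D25 the 2 organoids highest in Shh, replicates 1 and 6, had the highest sums (254 and 143 CPM), and the organoid with no Shh read, replicate 2, had the lowest (3.97 CPM). Neurod6 alone gave 197 of the 254 CPM of D25 replicate 1, and the sum of the other 3 genes placed the 6 D25 organoids in the same order, from 56.9 CPM in replicate 1 to 2.998 in replicate 2. Other timepoints had exceptions. The only D22 organoid with a Shh read, replicate 3, ranked 5 of 6 in the sum (2.97 CPM), and D20 replicate 3 ranked 2 in the sum with 4 Shh reads. At D30 replicate 6 held 18 Shh reads with a sum of 4.27 CPM and replicate 4 held 12 with a sum of 154.5. Markers of the floor plate, the other common Shh source of the neural tube, summed over 4 genes to 41.6 to 93.8 CPM at D20, 52.3 to 80.1 at D22, 86.5 to 120.5 at D25 and 141 to 189.9 at D30. This sum was higher at D25 than at D22 without overlap, as Shh was in all D25 organoids but replicate 2. Of the 4 genes only 1 was above the filter, and Foxa2, a defining marker, was at 0 reads in all D20, D22 and D25 organoids. The part of these other cells in the Shh levels was not tested.

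**Figure D2:**
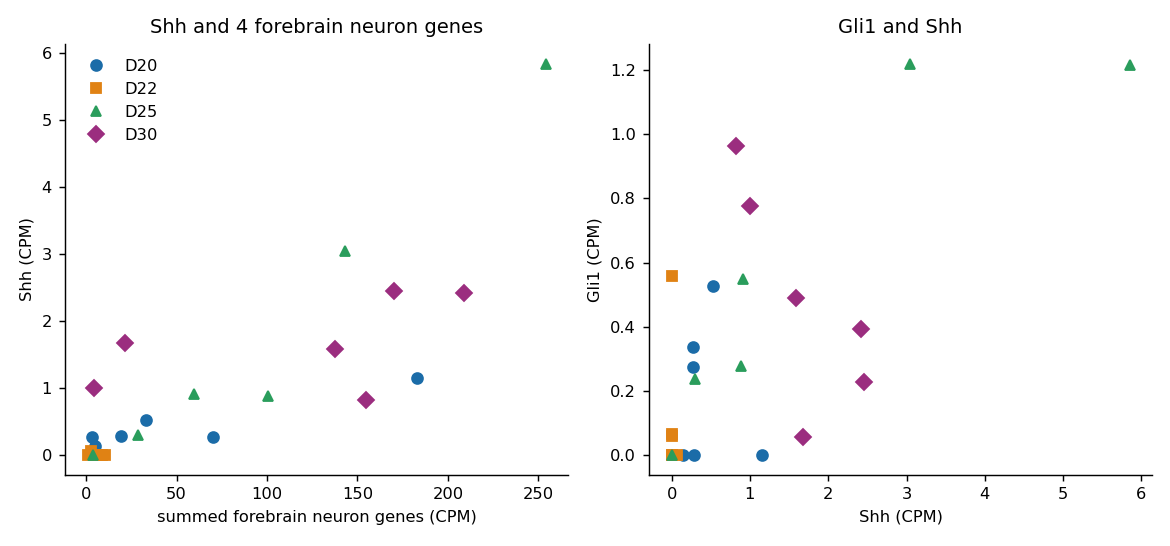
Left, Shh in CPM against the summed CPM of 4 forebrain neuron genes, and right, Gli1 in CPM against Shh in CPM, with 1 point per organoid and colour and shape by timepoint. D25 replicate 1 lies at 5.85 CPM of Shh and 254 CPM of the gene sum, while all D22 organoids lie near 0 on both. In the right panel D25 replicates 1 and 6 are the highest D25 organoids in both genes, at 1.22 CPM of Gli1 each, and D25 replicate 2 lies at 0 in both.

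The 5 genes whose pattern over the 24 organoids was most like that of Shh, by Pearson r of log2(CPM + 0.5) among 10830 annotated genes, were Rgs6 (0.914), Sybu (0.888), Nexmif (0.886), Frmpd4 (0.883) and Fam49a (0.880). For Gli1 they were Fabp3 (0.754), Tbcb (0.696), Frmpd4 (0.695), Lrrc4 (0.691) and B4galt2 (0.683). For Hhip they were Serac1 (0.597), Psmd11 (0.595), Atraid (0.594), Acbd3 (0.593) and Osbpl11 (0.585). These values describe the organoids, which share timepoints, and Gli1 and Hhip are measured by few reads.

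Ptch1, receptor and target gene, was well measured and nearly level. Its lowest, median and highest CPM were 38.9, 44.1 and 59.4 at D20, 45.9, 49.4 and 57.0 at D22, 44.0, 53.1 and 63.7 at D25, and 41.2, 51.1 and 54.9 at D30. The 4 ranges overlapped. From D20 to D30 the log2 change was 0.12 ± 0.11 (SE, adjusted p = 0.399, edgeR), and the joint test gave an adjusted p of 0.442. No change over the series was detectable for this gene.

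Gli1, the Gli factor most directly tied to active signalling, was near the floor of the assay. Its read counts were 0, 5, 4, 8, 0 and 0 at D20, then 1, 8, 0, 0, 0 and 1 at D22. They were 21, 0, 9, 5, 4 and 20 at D25 and 4, 8, 1, 14, 6 and 14 at D30. The 4 timepoints overlapped. Mean levels were 0.190 ± 0.224 CPM at D20 and 0.114 ± 0.220 at D22 (SD, n = 6), then 0.583 ± 0.522 at D25 and 0.484 ± 0.338 at D30. With 59 reads at D25 against 10 at D22 the ratio in CPM of the summed reads was 5.29 (95% exact interval 2.68 to 11.6, counting error only), and without D22 replicate 2, which held 8 of those 10 reads, it was 22.2. Over organoids, an exact two-sided permutation test of the mean CPM gave p = 0.0866 for that comparison (0.263 after Benjamini-Hochberg adjustment over the 5 comparisons of timepoints that were run, D30 against D22 not among them), and p = 0.106 for D30 against D20 (0.263 adjusted). The smallest p that 924 regroupings allow is 0.00216. Per kilobase, mean Ptch1 was 85.2 times mean Gli1 at D20, 156 times at D22, 32.0 times at D25 and 36.4 times at D30. The ratio became 713 without D22 replicate 2 and 131 without D20 replicate 4, the organoid of each timepoint with the most Gli1 reads.

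Organoids of the same timepoint were used to ask whether ligand and target, or both targets, differed together, in 8 relations on log2(CPM + 0.5). Within the 6 D25 organoids Gli1 and Shh gave Pearson r = 0.959 (exact permutation p = 0.00556, 0.0444 adjusted over the 8) and Spearman rho = 0.943 (exact permutation p = 0.0167, 0.133 adjusted). Neither adjusted p was below 0.01. Without the 2 organoids farthest from the median of Shh, r was 0.937. At D30 r was -0.732 (exact permutation p = 0.0972, 0.389 adjusted), at D20 it was -0.0699 (exact permutation p = 0.95, 1 adjusted) and at D22, where 1 organoid held the only Shh read, -0.277 (exact permutation p = 1). Spearman rho was -0.829 at D30 (exact permutation p = 0.0583), 0.0304 at D20 (exact permutation p = 1) and -0.417 at D22 (exact permutation p = 1), and without the 2 farthest organoids r was 0.0897 at D30 and 0.528 at D20. The difference between timepoints was not tested. The D25 organoids high in both genes, replicates 1 and 6, are those highest in the sum of the 4 genes with Neurod6 given above. For Gli1 with Ptch1, r lay between -0.308 and 0.106 and rho between -0.0857 and 0.273 over the 4 timepoints, with the smallest exact permutation p at 0.617 and every adjusted p at 1. Without the 2 farthest organoids these r ranged from -0.777 at D25 to 0.896 at D22.

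Hhip, which binds Hedgehog ligands at the cell surface and keeps them from Ptch1, was low and variable. Its lowest, median and highest counts were 1, 19.5 and 39 at D20, 4, 17.5 and 43 at D22, 1, 19.5 and 36 at D25, and 12, 30.5 and 48 at D30. The ranges overlapped throughout. The log2 change from D20 to D30 was 0.24 ± 0.59 (SE, adjusted p = 0.783, edgeR), and no change was detectable at this depth.

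Gas1, a membrane co-receptor that aids ligand binding, was measured at 6.83, 12.5 and 15.9 CPM (lowest, median, highest) at D20 and at 12.2, 13.6 and 18.4 at D30, with D22 at 8.24 to 12.2 and D25 at 8.24 to 17.5. These ranges overlapped. The log2 change from D20 to D30 was 0.18 ± 0.19 (adjusted p = 0.480, edgeR).

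Cdon, the other co-receptor of the list, fell with its organoids close together. Its lowest, median and highest CPM were 137, 152 and 163 at D20, 134.5, 141 and 173 at D22, 109, 114 and 141 at D25, and 72.2, 88.2 and 97.4 at D30. Every D30 organoid lay below every organoid of the 3 earlier timepoints. The log2 change was -0.81 ± 0.09 from D20 to D30 (SE, adjusted p = 9.08e-09, edgeR) and -0.45 ± 0.09 from D25 to D30 (adjusted p = 0.000933), where it was the only member called, beside 3.51% of features. The D25 level was also below that of D20 (log2 change -0.36 ± 0.09, adjusted p = 0.00228), a call lost with no filter on low counts (0.0266). From D22 to D25 its change of -0.32 missed the threshold (0.0136) and passed without D25 replicate 3 (0.00694), the highest Cdon organoid of its timepoint, or D30 replicate 6 (0.00876), without D30 replicates 2 and 6 together (0.00894), and with annotated genes only (0.000623).

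Smo, the signal transducer, fell between D20 and D25. Its 6 values were 92.4, 54.9, 74.8, 54.0, 55.0 and 61.5 CPM at D20, 43.2, 50.8, 36.8, 47.7, 61.9 and 67.0 at D22, 25.8, 26.2, 40.4, 26.4, 33.7 and 37.0 at D25, and 34.4, 26.9, 18.8, 29.7, 45.6 and 21.5 at D30. All D25 and all D30 organoids lay below all D20 organoids, and D25 and D30 overlapped. Smo fell 2.07-fold from D20 to D25 (log2 change -1.05 ± 0.18, adjusted p = 6.08e-05, edgeR) and 2.22-fold from D20 to D30 (log2 change -1.15 ± 0.18, adjusted p = 7.83e-06). From D25 to D30 the log2 change was -0.10 ± 0.18 (adjusted p = 0.855).

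Gli3, which acts largely as the repressor of the family in neural tissue, varied little at D20 (coefficient of variation 5.48%) and fell to D25. The 6 D20 organoids held 32.9, 34.7, 34.6, 30.1, 34.9 and 33.0 CPM, and at D22 the values were 17.8, 24.1, 12.1, 15.3, 25.8 and 21.2. At D25 they were 10.1, 10.4, 14.2, 9.63, 9.45 and 12.6, and at D30 they were 19.2, 10.3, 7.41, 11.97, 14.6 and 4.88. Every later organoid lay below every D20 organoid, and the D30 organoids spread on both sides of the D25 ones. The fall was 3.01-fold from D20 to D25 (log2 change -1.59 ± 0.22, adjusted p = 1.92e-06, edgeR) and 2.93-fold from D20 to D30 (log2 change -1.55 ± 0.22, adjusted p = 1.14e-06).

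Gli2, the main activator of the family, was lower and also fell, with 6.38, 7.70 and 9.79 CPM (lowest, median, highest) at D20, 2.65, 4.02 and 7.12 at D22, 1.39, 2.41 and 4.28 at D25, and 1.79, 2.197 and 5.14 at D30. D25 and D30 lay below D20 without overlap. It fell 2.96-fold from D20 to D25 (log2 change -1.57 ± 0.30, adjusted p = 0.000174, edgeR) and 2.66-fold from D20 to D30 (log2 change -1.41 ± 0.29, adjusted p = 0.000290). The ratio of Gli3 to Gli2 per kilobase was 2.35 to 3.90 (median 3.15) at D20 and 1.80 to 4.79 (median 2.50) at D30, ranges that overlapped. Gli3 made up a median of 75.5% of the summed Gli1, Gli2 and Gli3 levels per kilobase at D20 and 70.0% at D30.

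From D20 to D25 the 4 called members, Smo, Gli2, Gli3 and Cdon, all fell, beside 15.1% of features called and 6.61% called lower. Of the 16253 annotated genes tested, 4093 were called over that interval, 1688 of them lower. Within shorter steps their calls turned on the setting. The Gli3 change from D20 to D22 (log2 change -0.78 ± 0.21) separated all 6 organoids from the other 6 but had an adjusted p of 0.0275 in edgeR's test. It passed with DESeq2 (0.00854), with those 2 timepoints alone (0.00256) and without D30 replicate 6 (0.00802) or D30 replicates 2 and 6 together (0.00855). From D22 to D25, Gli3 (log2 change -0.81 ± 0.22, adjusted p = 0.0132) passed without D22 replicate 3 (0.00488), D30 replicate 1 (0.00574) or D30 replicate 6 (0.00329), without D30 replicates 2 and 6 together (0.00347), with DESeq2 (0.00639), with annotated genes only (0.00283) and with the 2 compared timepoints alone (0.00519). Smo over that step (log2 change -0.70 ± 0.18, adjusted p = 0.0109) passed in 6 of the 24 fits without 1 organoid, those leaving out D20 replicate 1 (0.00859), D22 replicate 3 (0.00509), D25 replicate 3 (0.00943) or D30 replicates 3 (0.00748), 5 (0.00565) or 6 (0.00784). It also passed with DESeq2 (0.00645), no filter on low counts (0.00941), annotated genes only (0.00234) and the 2 compared timepoints alone (0.00428), and without D30 replicates 2 and 6 together (0.00872).

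**Figure D3:**
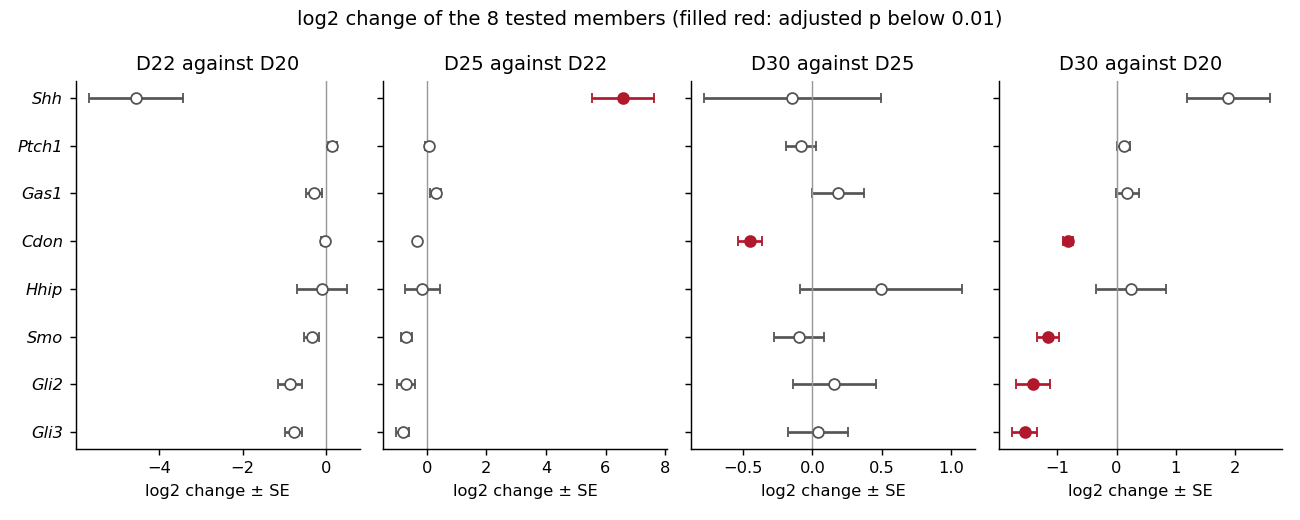
Log2 change with its SE on the horizontal axis for the 8 tested members in 4 comparisons, each panel with its own scale, filled red where the adjusted p is below 0.01. Only Shh is called from D22 to D25 and only Cdon from D25 to D30, while Smo, Gli2, Gli3 and Cdon are called lower at D30 than at D20.

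A contrast of the last 5 days with the first 5 days asked whether the rate of change differed between them. No member was called with edgeR (2.02% of all features were), 3 had an unadjusted p under 0.05 and DESeq2 called 1, Gli3. The share of all features at that cutoff or with DESeq2 was not taken. With edgeR Gli3 lay at the threshold, with a difference in log2 change of 1.63 ± 0.39 and an adjusted p of 0.01, not below it. With DESeq2 the adjusted p was 0.000842, with its size factors 0.00985, with no filter 0.00632, with annotated genes only 0.00560, without D30 replicate 6 0.000871 and without D30 replicates 2 and 6 together 0.000935. It also passed without D22 replicate 3 (0.00668), D22 replicate 5 (0.00879), D25 replicate 3 (0.00934) or D30 replicate 3 (0.00528). The same contrast was 1.73 ± 0.53 for Gli2 (adjusted p = 0.0544), 0.95 ± 0.32 for Smo (0.0895) and -0.09 ± 0.15 for Cdon (0.863).

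Markers of retinal progenitors and cycling cells were also lower at D25 and D30 than at D20. Summed over 9 genes, of which all 9 were measured above the filter, their level was 1135 to 1762 CPM at D20, 592 to 1155 at D22, 237 to 940 at D25 and 335 to 611 at D30. The medians were 1538, 799.9, 566 and 397 CPM. The log2 change of Cdon was -0.04 from D20 to D22 and -0.45 from D25 to D30. The median sum went from 1538 to 799.9 CPM over the first step and from 566 to 397 CPM over the second. At D30 the 6 organoids had the same order in Gli3 and in this sum, from replicate 1 (19.2 CPM of Gli3, sum 611) to replicate 6 (4.88 CPM, sum 335). In the other timepoints Gli3 and the sum gave the same rank to 1 organoid at D20, 2 at D22 and 2 at D25. The D20, D22, D25 and D30 counts of organoids with the same rank were 3, 4, 3 and 2 for Smo, 1, 1, 3 and 3 for Gli2 and 1, 0, 2 and 3 for Cdon. With the Müller glia sum, Gli3 at D30 shared its rank in 4 of 6 organoids. Summed Müller glia markers (8 genes) stood at 514 to 712 CPM at D20 and 1212 to 4179 at D30, and rod markers (6 genes) at 343.5 to 785 and 2308 to 4100. The part of the changing cell makeup in the falls of Smo, Gli2, Gli3 and Cdon was not tested.

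**Figure D4:**
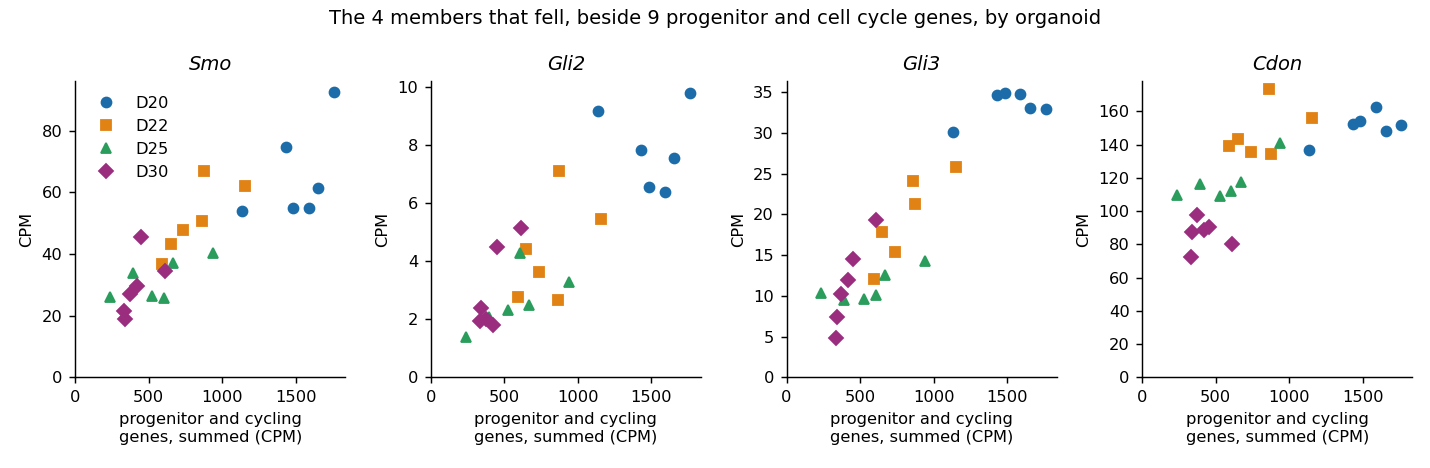
CPM of Smo, Gli2, Gli3 and Cdon against the summed CPM of 9 progenitor and cell cycle genes, 1 point per organoid with colour and shape by timepoint. D20 organoids lie at sums of 1135 and above with the highest Gli3, and the 6 D30 organoids line up in the Gli3 panel from 4.88 CPM to 19.2 CPM.

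The labels give the tissue as retina. Markers of rods, bipolar cells (212 to 340.0 CPM summed over 6 genes at D30), amacrine cells (68.2 to 150.1) and cones (19.9 to 51.6, with Opn1mw at 0 in all D20 and D22 organoids) were present. Among the lists for other cells, summed D30 levels were 116.5 to 2195 CPM for astrocytes (3 genes), 66.4 to 294 for fibroblasts and mesenchyme (6 genes), 125 to 206 for endothelium (4 genes), 47.1 to 200.3 for the oligodendrocyte lineage (4 genes) and 0.166 to 1.70 for microglia (4 genes). The astrocyte list holds Gfap, which the study reads as a hallmark of reactive Müller glia, and the study states that MRO systems lack astrocytes. That sum therefore does not show astrocytes. Of the 4 endothelium genes 3 were above the filter, and Cdh5 was at 0 reads in all D20 and all D25 organoids. The study also states that MRO systems lack vasculature, so the endothelium sum does not show endothelial cells. Pdgfra is counted in both the fibroblast and the oligodendrocyte sum. Pigment epithelium genes summed to 2709.5 and 2514.7 CPM in D30 replicates 2 and 6 and to between 33.2 and 477 in the other D30 organoids. Without those 2 organoids the same 4 members were called from D20 to D30.

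A further list of 47 pathway genes was read beside the members, and 35 of them passed the filter. In the joint test 24 of the 35 were called, beside 27.2% of all features. That share includes assembled loci, while all 35 are annotated genes, and the share of annotated genes alone was not taken. From D20 to D30, 12 rose and 7 fell, beside 13.9% of all features called higher and 13.0% called lower, with a median log2 change of 0.09 beside -0.04 over all features, and with scaling on annotated genes only the split was 11 and 10. Of the 16253 annotated genes tested, 4078 were called higher and 2712 lower, with a median log2 change of 0.099. From D25 to D30 the called genes were 4 of 35, all lower, beside 3.51% of features called and 1.75% called lower, or 3 higher and 4 lower with DESeq2. Over that step 1199 of the annotated genes tested were called, 460 of them lower.

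Among the further ligands desert hedgehog (Dhh), known from testis and peripheral nerve, rose. Its counts were 0 to 10 at D20, 3 to 16 at D22, 10 to 23 at D25 and 37 to 69 at D30. Every D30 organoid lay above every earlier organoid. The mean was 0.340 ± 0.2501 CPM at D20 and 3.12 ± 0.598 at D30 (SD, n = 6), a log2 change of 3.17 ± 0.49 (adjusted p = 4.68e-06, edgeR) that was called in every alternative. Indian hedgehog (Ihh) was not tested, with 9, 1, 1 and 17 reads in the 6 organoids of the successive timepoints.

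Of the genes that modify, release or carry ligands, 1 rose and 1 fell of 5 tested from D20 to D30, beside 26.8% of all features called. Disp2, a relative of the ligand exporter Dispatched 1, rose from 6.64 ± 2.42 to 18.6 ± 4.05 CPM between D20 and D30 (log2 change 1.48 ± 0.23, adjusted p = 5.11e-06, edgeR). Scube3, of a family of secreted carriers, fell from 55.6 ± 14.8 to 11.6 ± 2.12 CPM (log2 change -2.27 ± 0.16, adjusted p = 9.89e-13), and the 2 timepoints did not overlap. Scube2 was too low to test.

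All 5 further receptors and co-receptors were tested. Boc, the close relative of Cdon, dipped at D22, with 2.70 to 6.07 CPM at D20, 0.540 to 2.30 at D22, 3.32 to 9.21 at D25 and 2.66 to 14.6 at D30. D22 did not overlap D20 or D25. The log2 change was -1.70 ± 0.36 from D20 to D22 (adjusted p = 0.00380, edgeR) and 1.91 ± 0.36 from D22 to D25 (adjusted p = 0.000576). The first call was lost without D20 replicate 1 (0.0127) or 4 (0.0119) or D22 replicate 2 (0.0120), 3 (0.0154) or 4 (0.0115). From D20 to D30 its change was 0.90 ± 0.33 (adjusted p = 0.0300).

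Gpc5, a glypican, rose from 0.588 ± 0.534 to 4.10 ± 2.59 CPM between D20 and D30 (log2 change 2.77 ± 0.73, adjusted p = 0.00300, edgeR), although 1 D30 organoid held only 2 reads. Hspg2, the basement membrane proteoglycan perlecan, fell from 10.1 ± 1.60 to 3.78 ± 1.501 CPM (log2 change -1.41 ± 0.26, adjusted p = 6.98e-05). Lrp2, an endocytic receptor that takes up Shh, had a log2 change of 0.61 ± 0.21 (adjusted p = 0.0223). It was called in the joint test (0.00645), and the call was lost without D25 replicate 4 (0.0101), 5 (0.0101) or 6 (0.0107), or D30 replicate 2 (0.0250), 3 (0.0251) or 6 (0.0211), without D30 replicates 2 and 6 together (0.0913) and with annotated genes only (0.0273). Gpc3, a glypican that competes with Ptch1 for ligand, had a log2 change of 0.09 ± 0.20 (adjusted p = 0.774).

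Of the 17 genes of the relay and the cilium, all 17 were tested, and 7 rose and 2 fell from D20 to D30, beside 13.9% of all features called higher and 13.0% called lower. Kif7, the ciliary kinesin that organises Gli proteins (log2 change -0.85 ± 0.18), and Evc2, which binds Smo at the cilium (-1.45 ± 0.21), fell. The rises were small, from 0.30 ± 0.09 for Spop, which targets Gli proteins for breakdown, to 0.80 ± 0.20 for the kinase gene Stk36. Between them lay the protein kinase A subunits Prkaca (0.50 ± 0.10) and Prkacb (0.64 ± 0.13), Iqce (0.50 ± 0.11), Grk2 (0.43 ± 0.12) and Dyrk2 (0.47 ± 0.10). The Spop call (adjusted p = 0.00923, edgeR) was lost, at 0.0101 to 0.0272, without any 1 of D20 replicates 1, 2, 3, 4 and 6, D22 replicate 2, D25 replicates 1, 3, 4, 5 and 6 and D30 replicates 1, 2, 3, 4 and 6. It was also lost with no filter on low counts (0.0342), filterByExpr (0.0136), annotated genes only (0.0383), the replicate block (0.0164) or the 2 compared timepoints alone (0.0176), and without D30 replicates 2 and 6 together (0.0206). The Grk2 call (adjusted p = 0.00567, edgeR) was lost without D20 replicate 2 (0.0201) or 3 (0.0107) or D30 replicate 1 (0.0132), 2 (0.0124), 4 (0.0243) or 5 (0.01315), with no filter on low counts (0.0205) and with the 2 compared timepoints alone (0.0271). Dyrk2 was the 1 gene of the further list called in the contrast of the last with the first 5 days (-1.13, adjusted p = 0.000110, edgeR). Ulk3 was called in the joint test (0.00676), a call lost, at 0.0107 to 0.0197, without any 1 of D22 replicate 1, D25 replicates 1, 2, 4 and 5 and D30 replicates 1, 2, 4, 5 and 6. That call was also lost with DESeq2 size factors (0.0145), no filter on low counts (0.0215) or the replicate block (0.0124), and without D30 replicates 2 and 6 together (0.0509). Ulk3 had a log2 change of -0.40 ± 0.16 from D20 to D30 (adjusted p = 0.0516). Sufu, the main holder of Gli proteins in the cytoplasm, had a log2 change of -0.26 ± 0.15 (adjusted p = 0.189).

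Of 17 genes reported as pathway targets in various tissues, 10 were too low to test, among them Foxa2, Nkx2-2 and Nkx6-1, the ventral neural tube genes. All 7 tested were called in the joint test, beside 27.2% of all features, Sfrp1 no longer without D30 replicate 1 (adjusted p = 0.01065, edgeR). All 7 are annotated genes, and the share of annotated genes called jointly was not taken. From D20 to D30, 3 fell and 2 rose, beside 13.0% of all features called lower and 13.9% called higher. Cyclin D1 (Ccnd1) fell from 146 ± 24.6 to 25.2 ± 5.05 CPM (log2 change -2.53 ± 0.17, adjusted p = 3.00e-13, edgeR) and Mycn, a growth regulator, fell from 64.2 to 20.9 CPM (log2 change -1.62 ± 0.16, adjusted p = 1.05e-09). Hes1, a Notch effector, fell by 0.67 on the log2 scale (adjusted p = 0.00125). Cyclin D2 (Ccnd2) rose from 35.3 ± 23.2 to 170.5 ± 76.0 CPM (log2 change 2.27 ± 0.46, adjusted p = 0.000180) and the cell survival gene Bcl2 by 0.78 ± 0.21 (adjusted p = 0.00333). The Bcl2 call was lost without D20 replicate 5 (0.0111) or D30 replicate 1 (0.0155), and with D20 and D30 alone (0.0102). Olig2 had a change of -1.21 ± 0.38 (adjusted p = 0.0109) and Sfrp1 of 0.45 ± 0.32 (adjusted p = 0.287). These genes are under other controls too. Ccnd1, Mycn and Hes1 moved in the same direction as the progenitor and cell cycle sum given above, while Ccnd2 and Bcl2 moved the other way. What moved these genes was not tested.

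**Figure D5:**
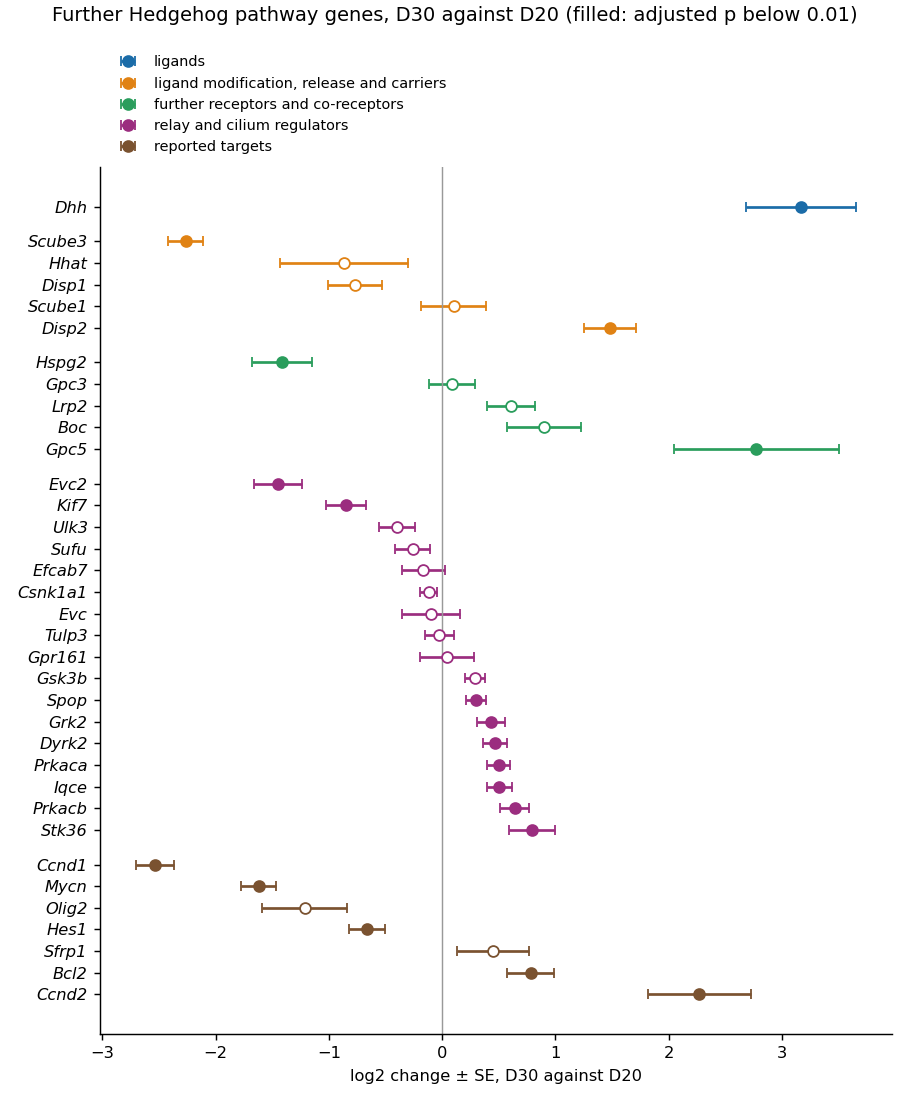
Log2 change with its SE between D20 and D30 on the horizontal axis for the 35 tested genes of the further pathway list, coloured by role, filled where the adjusted p is below 0.01. The ligand Dhh (3.17) and the cyclin gene Ccnd2 (2.27) rise, and Ccnd1 (-2.53) and Scube3 (-2.27) fall.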

How the data were processed

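The authors trimmed reads from rRNA-depleted, strand-specific libraries with cutadapt 1.5, aligned them with HISAT2 to GRCm38, assembled transcripts with StringTie 1.3.3 and counted with HTSeq 0.6.1. They deposited whole-number read counts per feature, without normalization, in 1 table for each of 24 organoids (79999 of 126602 features are assembled loci). The strand setting and any pairing of organoids were not given in the sources used here. Groups came from the sample labels. Here counts were TMM scaled, features averaging at least 10 normalised counts (the base mean) were kept, and 1 model of all timepoints was fitted with the quasi-likelihood test of edgeR 4.0.16 in R 4.3.3 (threshold 0.01, common biological coefficient of variation 0.385), a procedure checked on simulated data. CPM per kb used union exons of GENCODE. The pseudocount was 0.5. Exact permutation tests used scipy 1.17.1. DESeq2 1.42.0, other scalings and filters, fewer samples and a replicate block were alternatives. Gli1 was tested by permutation after it fell under the filter, and the forebrain gene list, its sum without Neurod6 and the fit without D30 replicates 2 and 6 were also chosen after seeing the data.

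Whether replicate numbers pair organoids is not known. Over 36 same-numbered pairs the median correlation of deviations was 0.0102, and 1 exceeded 0.1, beside a median of 0.00167 for organoids with other numbers. No 2 replicates agreed within sampling noise (lowest chi-square per degree of freedom 6.12). Members and lists were chosen with earlier results of these data known. Named were the 9 members, further-list genes called in the joint test or from D20 to D30, every further ligand and receptor, and the 5 genes most like Shh, Gli1 and Hhip each (base mean of at least 100), with marker lists as sums. Sufu, Scube2, Foxa2, Nkx2-2, Nkx6-1, Gfap, Pdgfra and Cdh5, and the 4 forebrain genes, were named outside this rule after their values were seen. A few genes of the lists are not reported here.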

Additional observations from a re-analysis of the deposited data

Results flagged for a closer look

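Among 36 groups of 6 organoids (9 members at 4 timepoints), 3 held an organoid far from the other 5 by Dixon's criterion. For normally distributed values it flags about 1 group in 20, a rate that does not hold for groups with few reads. Whether 3 flags exceed chance was not tested. For Shh at D22, replicate 3 stood at 0.0676 CPM, which is the only read of that timepoint, so the flag was fixed by that read. For Gli1 at D22, replicate 2 stood at 0.558 CPM (8 reads) with the other 5 organoids at 0 or 1 read. For Cdon at D25, replicate 3 stood at 141.1 CPM, above the other 5 at 109 to 117.7 CPM.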

How the results depend on the processing

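From D20 to D30 and in the joint test, the same 4 and 5 members were called in each fit without 1 organoid, while D30 against D25 gave 1, D25 against D20 4 to 5, D22 against D20 0 to 1, D25 against D22 1 to 4 and the last against the first 5 days 0 to 1. The further list gave 0 to 3 for D22 against D20, 5 to 12 for D25 against D22, 3 to 6 for D30 against D25, 14 to 15 for D25 against D20, 17 to 21 for D30 against D20, 1 to 3 for the last against the first 5 days and 22 to 25 jointly. For D22 against D20, where edgeR called 0 members (3 had an unadjusted p under 0.05), DESeq2 called 2, and no filter, the compared timepoints only, or leaving out D30 replicates 2 and 6 called 1 each. For D25 against D22 (1 call), DESeq2 and the compared timepoints gave 3, no filter 2, annotated genes only and leaving out those 2 organoids 4. In the contrast of the last with the first 5 days (0 calls), DESeq2, its size factors, no filter, annotated genes only and leaving out those 2 organoids gave 1 member, Gli3, and all of these but the size factors gave 2 further genes. DESeq2 called 7 further genes from D25 to D30. The share of all features called was not taken for DESeq2, other filters, compared timepoints alone, the replicate block or fits leaving out organoids. Nor was it taken at an unadjusted p under 0.05. With annotated genes only, 1022 annotated genes were called higher and 970 lower from D22 to D25, beside 1191 and 474 in the main fit. In the contrast of 5-day intervals these were 201 and 556, beside 145 and 485. The causes were not tested.

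The replicate block, with numbers not known to pair organoids, kept the counts of members at 0, 1, 1, 4, 4, 0 and 5 in the order of comparisons D22 against D20, D25 against D22, D30 against D25, D25 against D20, D30 against D20, last against first 5 days and joint. Of the 24 organoids 8 correlated best with their own number, a count not tested against chance.

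Signs turned only in changes that were called in no fit. From D20 to D22, Hhip became 0.140 under the block and Cdon 0.011 with annotated genes only. From D22 to D25, Ptch1 became -0.029 with annotated genes only. From D25 to D30, Shh became 0.595 under the block and 0.007 without D30 replicates 2 and 6, Smo 0.023 without them, and Gli3 -0.039 with annotated genes only and -0.017 under the block. From D20 to D25, Gas1 became 0.013 with DESeq2 or its size factors, 0.026 with no filter, 0.016 with filterByExpr, 0.025 under the block and 0.012 with the compared timepoints only. Without 1 organoid, Hhip ranged from -0.482 to 0.175 (D22 against D20), -0.382 to 0.229 (D25 against D22), -0.511 to 0.023 (D25 against D20) and -0.002 to 0.532 (D30 against D20). From D25 to D30, Shh ranged from -0.403 to 0.682, Smo from -0.267 to 0.001, Gli2 from -0.073 to 0.349 and Gli3 from -0.176 to 0.198. Gas1 ranged from -0.138 to 0.094 (D25 against D20) and -0.006 to 0.458 (last against first 5 days), and Cdon from -0.131 to 0.058 in that contrast. Depth limits Gli1, Shh and Hhip, with at most 59, 187 and 170 reads per timepoint.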
